A study of Drosophila melanogaster with 14 samples.

Results

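The cytosolic glutathione S-transferases (GSTs) of Drosophila melanogaster were followed in type II neural stem cells from larval brains. Members were the genes whose symbol consists of Gst, a class letter (D, E, O, S, T or Z) and a number, and 35 of the 17868 genes in the count table matched. They comprise 11 delta, 14 epsilon, 3 omega, 1 sigma, 4 theta and 2 zeta genes. GSTs join the tripeptide glutathione to reactive, electrophilic compounds, which makes those compounds more soluble and easier to export. The delta and epsilon classes have expanded in insects by tandem duplication and are known for the detoxification of insecticides and plant toxins, and several delta genes are induced by the oxidative stress pathway of the transcription factor cnc (the fly Nrf2) and its inhibitor Keap1. Omega enzymes use a cysteine in the active site and act as thiol transferases, and zeta enzymes take part in the breakdown of tyrosine as maleylacetoacetate isomerases.

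Sequencing libraries came from the polyadenylated RNA of cells labelled type II NSC, the neuroblasts that produce intermediate neural progenitors. There were 3 experiments with separate controls: 3 libraries of GAF RNAi and 3 controls, 2 of HDAC1 RNAi and 2 controls, and 2 of Osa overexpression and 2 controls. All controls carry the genotype label WT, and the labels give no driver, RNAi line, transgene or age for any group. The study asked what these chromatin proteins do in neural development: GAF (gene Trl) binds GA-rich DNA, HDAC1 removes acetyl groups from histones, and Osa belongs to a SWI/SNF remodelling complex.

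Total counts ran from 31788351 to 51505597 per library, and the members together took 0.164% to 0.348% of them. Trl stood at 5.21 ± 0.742 CPM (TMM-scaled counts relative to library size, mean ± SD) in the libraries labelled GAF RNAi and 5.499 ± 0.794 CPM in their controls, so that no fall was seen. Of Trl's exonic bases 77.8% overlap other genes on the same strand. How reads in the shared bases were counted is not given, so it is not known which bases the Trl counts come from. They show no knockdown, and GAF RNAi names the libraries as labelled. HDAC1 stood at 59.7 and 34.7 CPM in the HDAC1 RNAi libraries and 70.9 and 79.2 CPM in their controls, and osa at 299 and 288 CPM with Osa overexpression and 146 and 149.6 CPM in its controls. The series' design text calls the third manipulation a knockdown, which these osa levels and the sample labels do not show. All 7 stem cell markers (dpn, pnt, btd, klu, wor, mira and N) were detected in every group. Their summed level was 1285 to 1409 CPM in GAF RNAi and 1250.3 to 1456 CPM in its controls, 634 to 885 CPM in HDAC1 RNAi and 1582 to 1668 CPM in its controls, and 1210.0 to 1251 CPM with Osa overexpression and 1642 to 1780.3 CPM in its controls. In such bulk samples fewer cells of a type and less RNA per cell cannot be told apart.

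All 11 delta genes lie within 20.8 kb of chromosome 3R, from 12364776 to 12385624 of the BDGP6 assembly, and 10 epsilon genes (GstE10 and GstE1 to GstE9) within 13.2 kb of chromosome 2R, from 18396638 to 18409835. The other 4 epsilon genes stand elsewhere on 2R. GstE1 to GstE9 and GstD2 to GstD8 consist of 1 exon each, and neighbours in both clusters are similar in sequence. How reads that fit several genes were counted is not given in the sources used here, so the division of counts between neighbours is uncertain. The sum over a cluster does not depend on that division, but reads left out or counted more than once would change the sum too. Several members overlap a gene on the opposite strand, and the library kit does not mark strand. The shared part is 25.1% of the exonic bases of GstT2 (with CG12926), 5.1% of GstE9 (with imd), 3.5% of GstO2 (with sepia) and at most 2.4% of any other member.

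In the control libraries the family was led by a few genes. GstD1 (chromosome 3R, 12367817 to 12369268, minus strand), a delta enzyme known for metabolising DDT, was the highest member per kilobase of exon in all 3 sets of controls, with 836 ± 108, 1566 ± 0.503 and 1076 ± 8.07 CPM per kb in the GAF, HDAC1 and Osa controls. GstZ2 (3R, 9456815 to 9460652, minus strand), a zeta gene, had 569.6 ± 58.6, 188 ± 18.5 and 553 ± 20.8 CPM per kb in the same order. GstD9 had 385 ± 60.5, 300.0 ± 3.57 and 376 ± 56.7 CPM per kb. In the GAF controls GstD1, GstZ2, GstD9 and GstE6 formed the top of the order, and of these neighbours in the order GstD9 and GstE6 (285 ± 70.3 CPM per kb) lay within their summed SD of each other. At the other end GstD7, GstD8 and GstE4 never exceeded 26 counts in any library. Of the 35 members 15, 17 and 15 averaged at least 10 CPM in the GAF, HDAC1 and Osa controls.

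The sets of controls differed from each other as well. GstE2 averaged 30.5 CPM in the HDAC1 controls, against 0.5997 CPM in the GAF controls and 0.605 CPM in the Osa controls. GstE12 averaged 49.9 CPM in the HDAC1 controls, against 5.36 and 8.59 CPM in the GAF and Osa controls. GstE6 ran the other way, with 43.3 CPM in the HDAC1 controls and 214 and 91.1 CPM in the GAF and Osa controls. Each experiment was normalised by itself, and experiment and batch cannot be told apart, so each manipulation is set only against its own controls below.

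**Figure D1:**
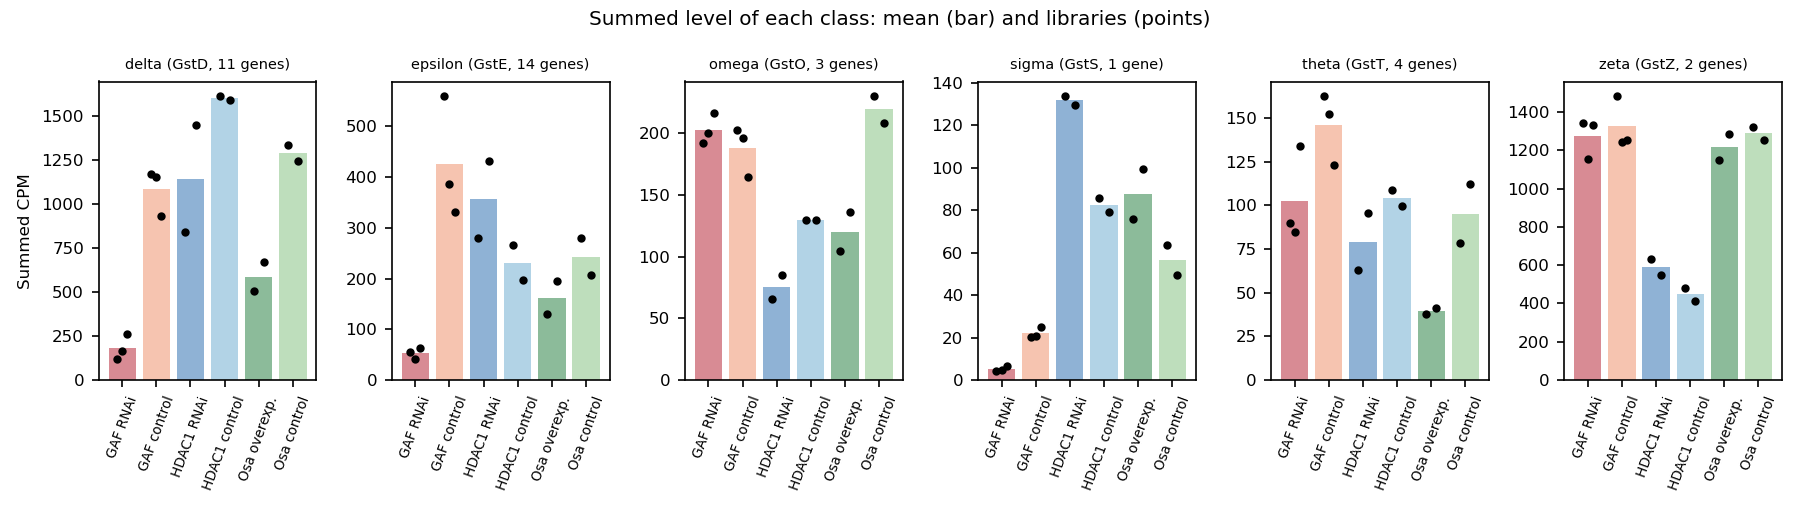
Summed expression of each GST class in CPM (linear axis from 0) for each group. Bars are group means and points are libraries. In the GAF experiment the delta sum is 182 ± 72.5 CPM in the RNAi libraries and 1085 ± 135 CPM in controls and the epsilon sum is 52.9 ± 11.02 CPM in the RNAi libraries and 426 ± 119.6 CPM in controls, while the zeta sums lie close together at 1275 ± 105 CPM in the RNAi libraries and 1327 ± 137 CPM in controls.

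In the libraries labelled GAF RNAi most delta and epsilon genes were lower than in controls, and a run of neighbouring epsilon genes was almost absent. The summed delta level was 182 ± 72.5 CPM in GAF RNAi, 16.7% of the 1085 ± 135 CPM in controls (n = 3 each), and the summed epsilon level was 52.9 ± 11.02 CPM, 12.4% of 426 ± 119.6 CPM in controls. GstE5, GstE6, GstE7 and GstE8 together held 0.474 ± 0.263 CPM in GAF RNAi and 291 ± 70.6 CPM in controls. The omega and zeta sums did not fall in this way: omega genes held 203 ± 12.2 CPM in GAF RNAi and 188 ± 20.3 CPM in controls, and zeta genes 1275 ± 105 CPM in GAF RNAi and 1327 ± 137 CPM in controls. Over all 35 members the sum was 1820.3 ± 181 CPM in GAF RNAi, 57.0% of 3193 ± 390.0 CPM in controls. Of the 30 members that passed the filter on low counts, 21 were called by edgeR's quasi-likelihood test (Benjamini-Hochberg adjusted p under 0.05), 3 higher and 18 lower. In the same test 28.4% of all genes were called, 12.5% higher and 15.9% lower. The median log2 fold change of the tested members was -1.09, beside 0.00 over all genes tested. By class, 2 delta genes were called higher and 5 lower of 8 tested, 1 epsilon gene higher and 9 lower of 12, 1 of 3 omega genes lower, 1 of 4 theta genes lower, 1 of 2 zeta genes lower and the sigma gene lower. GstD7, GstD8, GstD11, GstE4 and GstE14 were not tested, with at most 7 counts in any of these 6 libraries. A low member can pass the filter through its higher group alone, so the counts of called members describe the family and are not a test of it.

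**Figure D2:**
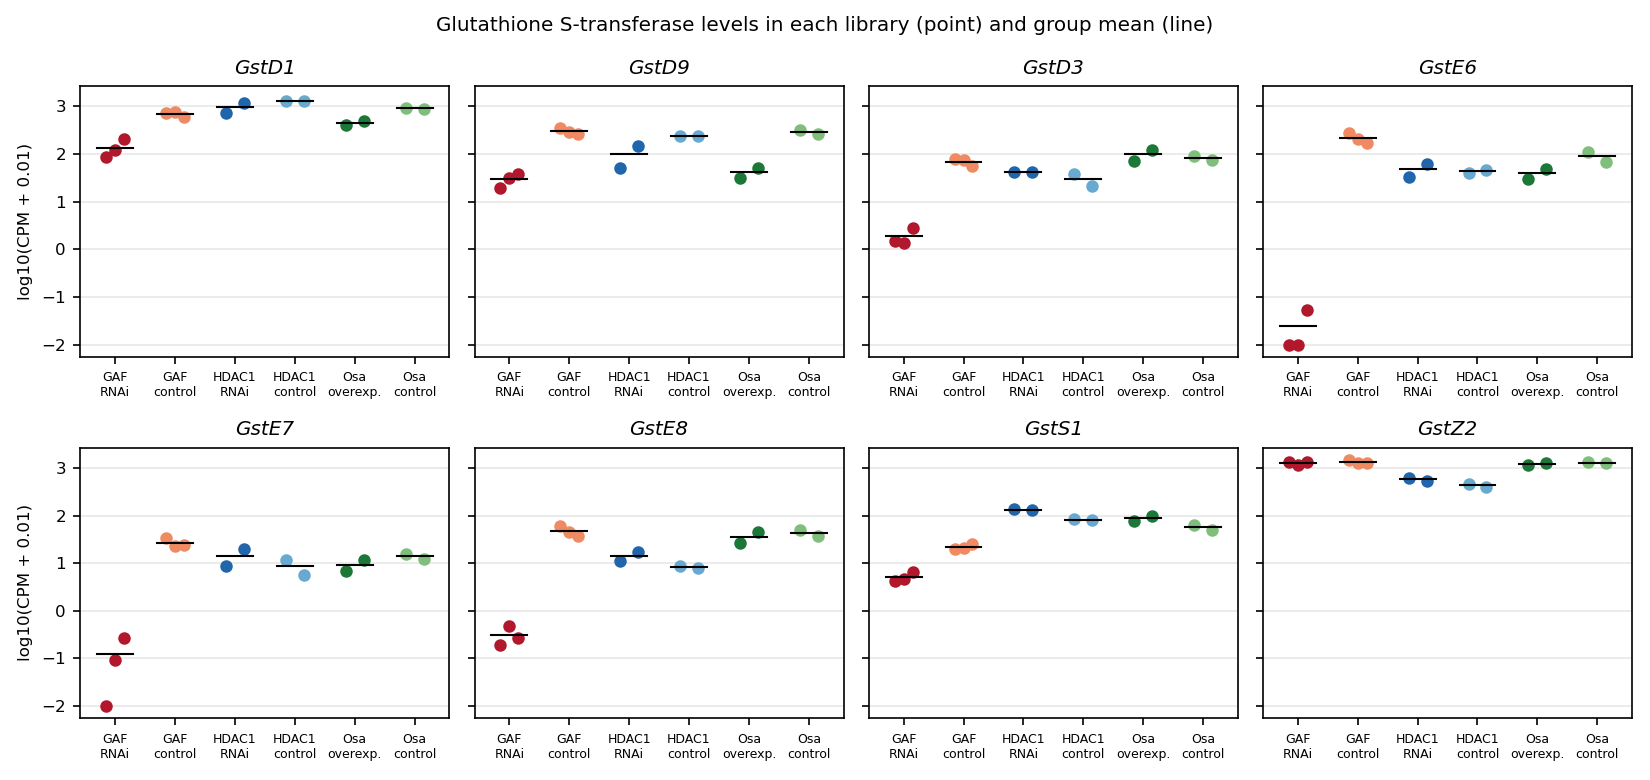
Level of 8 members in every library, as log10 of CPM plus 0.01. Points are libraries and lines are group means, with the manipulated group left of its controls. In the 3 GAF RNAi libraries GstE6, GstE7 and GstE8 lie below 0.5 CPM and GstD3 reaches at most 2.78 CPM, well under their levels in every other group, and GstZ2 stays near the same height within the GAF and the Osa experiment.

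Among the delta genes, the abundant GstD1 had 86.0, 122 and 203 CPM in the 3 GAF RNAi libraries and 727, 782 and 604 CPM in the 3 controls. The groups did not overlap (log2 fold change -2.36 ± 0.32, standard error, adjusted p = 0.00259). Its neighbour GstD9 (3R, 12366163 to 12367564, minus strand) had 19.2, 31.8 and 38.0 CPM in GAF RNAi and 355, 290.1 and 263 CPM in controls (-3.35 ± 0.25, adjusted p = 1.93e-05). Every RNAi library was again below every control. GstD3 (3R, 12373068 to 12373813, plus strand) fell further, with 1.52, 1.35 and 2.78 CPM in GAF RNAi and 79.0, 75.1 and 54.8 CPM in controls (-5.21 ± 0.29, adjusted p = 5.1e-07). GstD5, which is separated from GstD3 by GstD4 on the same strand, was higher, with 9.93, 6.12 and 14.4 CPM in GAF RNAi and 4.79, 1.68 and 3.30 CPM in controls. The groups were close but apart (1.64 ± 0.40, adjusted p = 0.012), and the call was lost without control replicate 3 (adjusted p = 0.0551). The lower-expressed delta genes also went both ways. GstD6 had 125 counts in GAF RNAi and 15 in controls, a ratio of 8.55 (95% counting interval 4.99 to 15.7), and was called higher, whereas GstD2 (27 counts in GAF RNAi and 109 in controls) and GstD10 (1.90 CPM in GAF RNAi and 3.96 CPM in controls) were called lower. GstD2 lost its call with any one of 5 libraries left out (adjusted p up to 0.137) and GstD10 with any one of 4 (up to 0.128). GstD4, with 31 counts in GAF RNAi and 44 in controls, was not called.

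The epsilon cluster held the largest differences of the family. GstE6 (2R, 18406011 to 18406761, plus strand) had 0, 0 and 2 counts in the 3 GAF RNAi libraries, equal to 0, 0 and 0.0430 CPM, and 11531, 10634 and 8141 counts in controls, equal to 272, 203 and 168 CPM. The ratio of controls to GAF RNAi was 14772 (95% counting interval 4089 to 121982), and the adjusted p was 3.22e-09. The next gene along, GstE7 (18406924 to 18407688), had 0, 4 and 12 counts in GAF RNAi (0, 0.0816 and 0.258 CPM) and 33.4, 23.3 and 24.3 CPM in controls, a ratio of controls to GAF RNAi of 232 (95% counting interval 143 to 407) with an adjusted p of 4.09e-05. GstE8 (18407834 to 18408955), the third in the run, had 0.181, 0.469 and 0.258 CPM in GAF RNAi and 61.1, 44.4 and 37.3 CPM in controls, with a ratio of controls to GAF RNAi of 153 (95% counting interval 113 to 211) and an adjusted p of 3.54e-08. None of the 3 genes had an RNAi library that came near a control. On either side the differences were smaller. GstE5, upstream of GstE6, had 6 counts in GAF RNAi and 287 in controls, with a ratio of controls to GAF RNAi of 46.6 (95% counting interval 21.2 to 128). GstE9, downstream of GstE8, had 53 counts in GAF RNAi and 226 in controls, with a ratio of controls to GAF RNAi of 4.16 (95% counting interval 3.07 to 5.72), and its call was lost without control replicate 2 (adjusted p = 0.0526). Such intervals reflect counting error alone. The RNA was amplified and carried no molecular identifiers, and even counts were in excess, so the intervals are too narrow.

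At the other end of the epsilon cluster GstE1 had 22.3, 17.2 and 31.6 CPM in GAF RNAi and 142, 71.5 and 64.6 CPM in controls. No RNAi library reached the lowest control (-1.97 ± 0.38, adjusted p = 0.0116), but without GAF RNAi replicate 1 the call was lost (adjusted p = 0.061). GstE3 had 12 counts in GAF RNAi and 170 in controls and was called lower, whereas GstE2 had 82 counts in GAF RNAi and 88 in controls and was not called (-0.01 ± 0.60, adjusted p = 0.991). GstE10, the outermost gene of the cluster, which is transcribed away from GstE1 and overlaps its start, was called higher on low counts, 314 in GAF RNAi and 26 in controls, a ratio of 12.4 (95% counting interval 8.30 to 19.3). That call was lost without control replicate 2 (adjusted p = 0.0593) or GAF RNAi replicate 3 (0.0552). Of the epsilon genes outside the cluster, GstE11 fell to 17 counts in GAF RNAi, against 287 in controls. GstE13 had 24.0, 19.6 and 23.1 CPM in GAF RNAi and 33.0, 32.6 and 28.3 CPM in controls, a small difference without overlap (-0.50 ± 0.16, adjusted p = 0.0314). Its call was lost without control replicate 2 or any 1 of the RNAi libraries (adjusted p 0.0667 to 0.119). GstE12 was not called (-0.85 ± 0.48, adjusted p = 0.214).

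**Figure D3:**
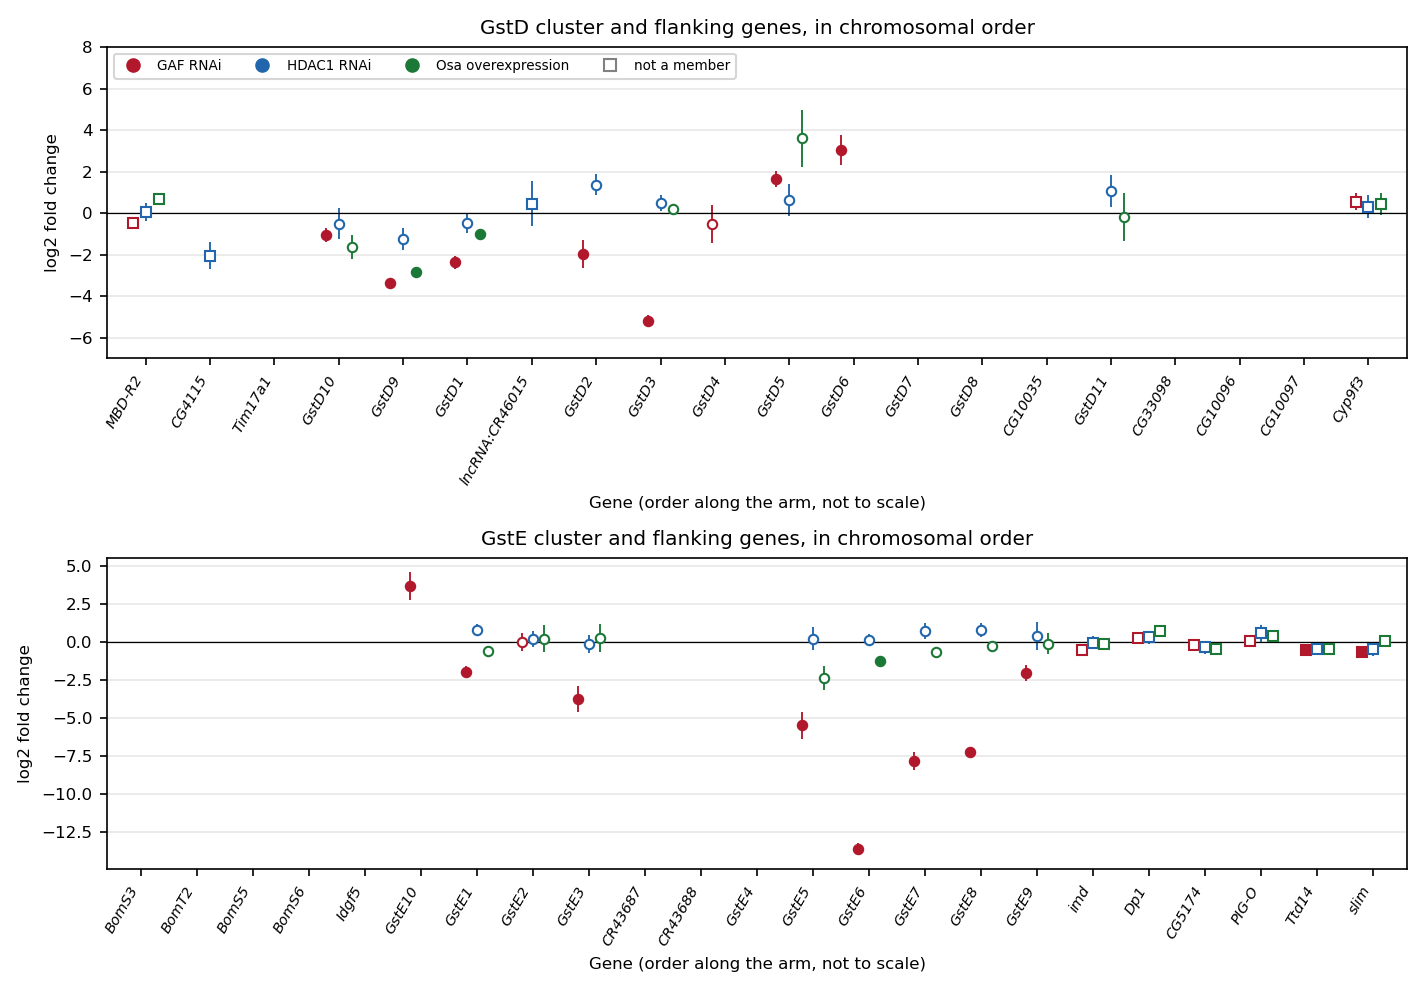
Log2 fold change ± SE of the genes of the delta and epsilon clusters and of their neighbours, in chromosomal order, for the 3 experiments. Filled symbols passed the test (adjusted p under 0.05), squares are genes outside the family, and a missing symbol marks a gene that was not tested. In the GAF experiment GstE5 to GstE8 form a run of 4 strongly negative values while the tested genes flanking that cluster lie between -0.65 and 0.29.

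The genes around the 2 clusters were read in the same fit. Of the 5 annotated genes on either side of the delta cluster and the non-members inside it, 2 were tested in the GAF experiment and neither was called by edgeR, DESeq2 or limma-voom, nor at an unadjusted p under 0.05. Their log2 fold changes were -0.47 for MBD-R2 and 0.55 for Cyp9f3. Around the epsilon cluster 6 genes were tested and 2 were called, both lower (33.3%, beside 15.9% of all genes called lower). These were slim (-0.65 ± 0.15, adjusted p = 0.00599) and Ttd14 (-0.53 ± 0.17, adjusted p = 0.033), and Ttd14 lost the call in leave-one-out fits (adjusted p up to 0.164). The gene imd of the immune deficiency pathway, which overlaps the end of GstE9, had 8.41 ± 0.538 CPM in GAF RNAi and 12.3 ± 1.71 CPM in controls (adjusted p = 0.0506).

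Of the remaining classes, the omega, theta and zeta sums differed less in the GAF experiment, while the single sigma gene stood at 23.5% of controls. GstS1 (2R, 17093246 to 17099501, minus strand), the sigma enzyme known for its abundance in flight muscle and its activity on the lipid peroxidation product 4-hydroxynonenal, had 4.18, 4.67 and 6.63 CPM in GAF RNAi and 20.2, 20.7 and 24.9 CPM in controls. The ranges were far apart (-2.09 ± 0.22, adjusted p = 2.2e-05). GstT3, a theta gene on chromosome X, had 35.1, 32.2 and 63.5 CPM in GAF RNAi and 85.4, 87.7 and 62.1 CPM in controls. RNAi replicate 3 exceeded the lowest control (-0.85 ± 0.26, adjusted p = 0.0404), and the call was lost without any one of 4 libraries (control replicates 1 and 2, RNAi replicates 1 and 2, adjusted p 0.0844 to 0.116). The low omega gene GstO3 and the low zeta gene GstZ1 were called lower. GstO3 averaged 2.22 CPM in GAF RNAi and 4.85 CPM in controls, and GstZ1 0.946 CPM in GAF RNAi and 2.30 CPM in controls. Both calls were lost with at least 4 of the 6 libraries left out in turn (adjusted p up to 0.117 for GstO3 and 0.12 for GstZ1). GstO2 had 142, 149.6 and 154 CPM in GAF RNAi and 131, 129 and 107 CPM in controls and was not called (0.28 ± 0.12, adjusted p = 0.103), nor was GstZ2, at 1274 ± 105 CPM in GAF RNAi and 1324 ± 136 CPM in controls (-0.06 ± 0.12, adjusted p = 0.768). GstO1, GstT1, GstT2 and GstT4 were not called either. The 10 members called in every alternative analysis that tested them were GstD1, GstD3, GstD9, GstE3, GstE5, GstE6, GstE7, GstE8, GstE11 and GstS1. Of these, GstE3, GstE5 and GstE11 were not tested under the filter at 5 CPM on average.

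**Figure D4:**
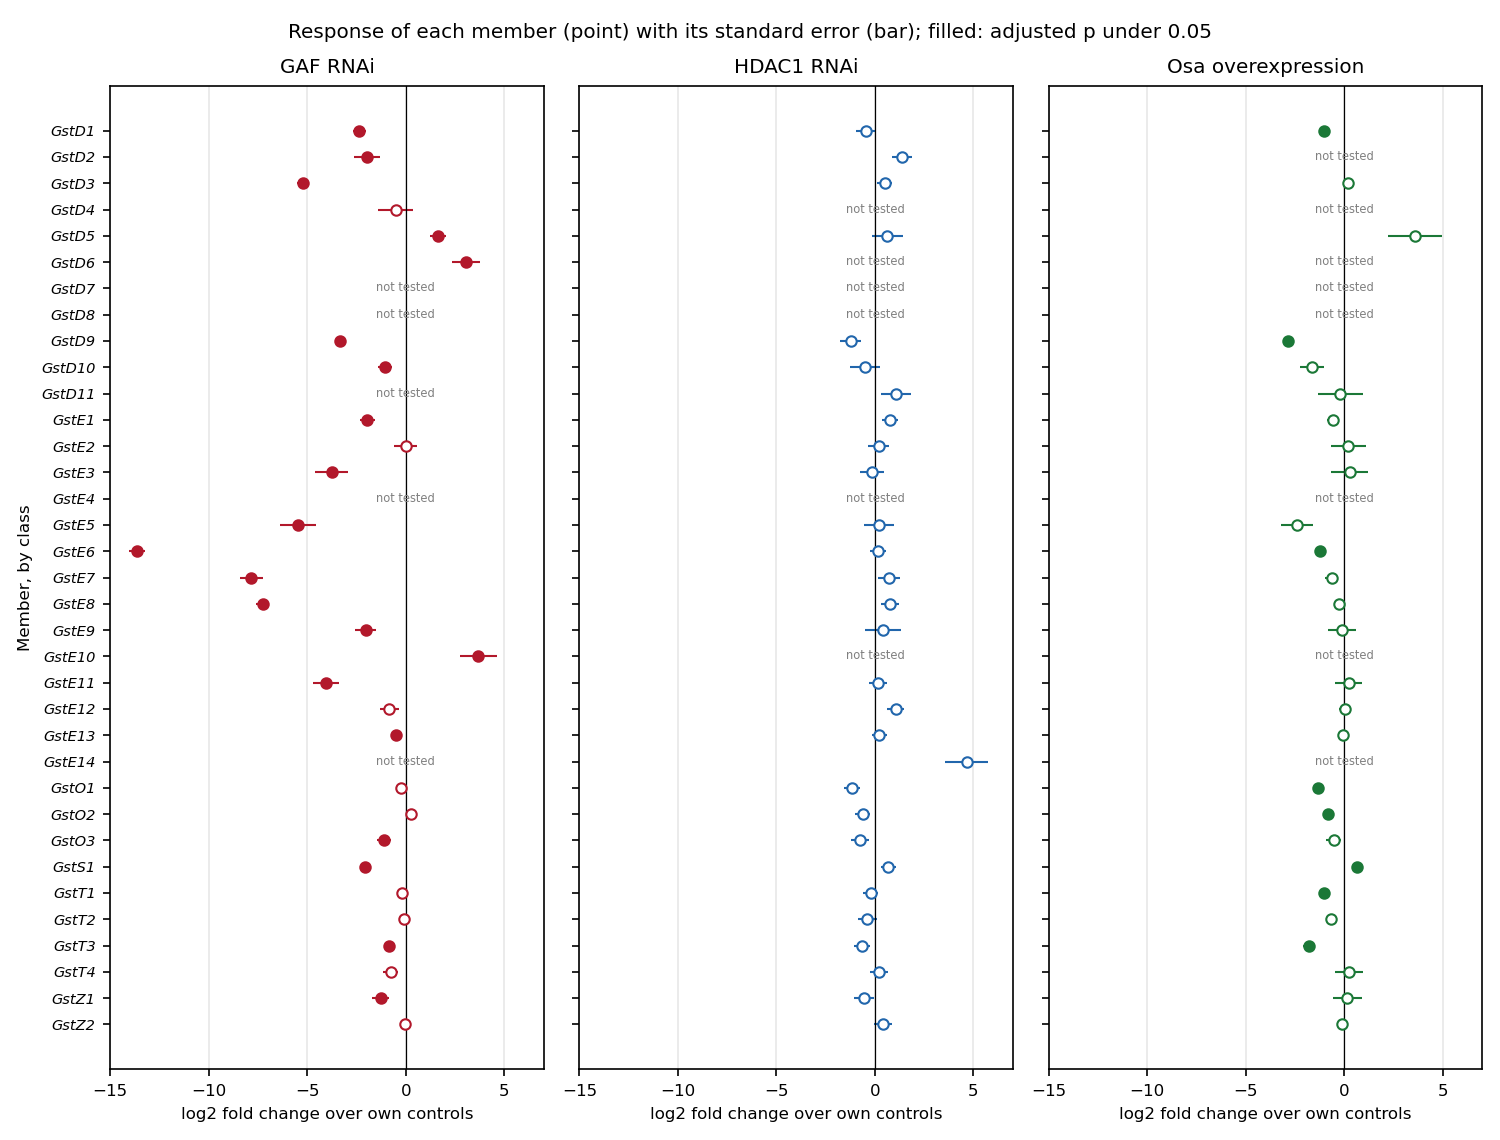
Log2 fold change ± SE of the tested members in the 3 experiments (manipulated over control), by class. Filled symbols passed the test (adjusted p under 0.05). The GAF panel holds 21 filled symbols, the HDAC1 panel none and the Osa panel 8.

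Of 14 tested genes in a list for glutathione synthesis and recycling and NADPH supply, 4 were called in the GAF experiment, all lower, with a list median of -0.30. That is 28.6% of the list, beside 28.4% of all genes called in either direction and 15.9% called lower. Without Gfat1, a gene of the hexosamine pathway that was not called here, 4 of 13 genes were lower (median -0.38). The 4 called genes were the NADP malic enzyme Men (-1.13 ± 0.27, adjusted p = 0.0166), the pentose phosphate enzyme Pgd (-0.81, 0.0226), the thioredoxin reductase Trxr-1 (-0.77, 0.0304) and the isocitrate dehydrogenase Idh. None of the 4 kept its call with every library left out in turn (adjusted p up to 0.148). Gclc and Gclm, the subunits of glutamate-cysteine ligase, had log2 fold changes of -0.04 and -0.38 and were not called. Of 14 tested genes of the Nrf2 pathway and its antioxidant targets 4 were called higher and 2 lower (median 0.01). That is 28.6% called higher and 14.3% lower, beside 12.5% and 15.9% of all genes. The catalase gene Cat was lower, at 138 ± 8.17 CPM in GAF RNAi and 246 ± 36.5 CPM in controls (-0.83 ± 0.13, adjusted p = 0.000575), and the peroxiredoxin gene Jafrac1 was higher, at 671 ± 65.9 CPM in GAF RNAi and 479 ± 41.2 CPM in controls (0.49 ± 0.12, 0.00932). Sod3, an extracellular superoxide dismutase, was also called higher, at 2.22 ± 1.23 CPM in GAF RNAi and 0.304 ± 0.0662 CPM in controls. The regulator cnc itself was lower by a small amount (-0.42 ± 0.14, adjusted p = 0.0404), with Keap1 (-0.12) and maf-S (0.04) not called. Of these 6 calls 3 held with each library left out (adjusted p of the others up to 0.159).

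Genes related to the family by fold or by role in detoxification held calls in both directions. They are read beside the 28.4% of all genes called in the GAF experiment, 12.5% higher and 15.9% lower. Of 10 tested genes outside the family with a glutathione transferase fold, 3 were called, all lower (median -0.45): the translation elongation factor subunit eEF1gamma (-0.60 ± 0.13, adjusted p = 0.00441), the tRNA synthetase MetRS (-0.65, 0.00766) and the chloride channel protein Clic (-0.40, 0.0159), and 2 of them held with each library left out. The microsomal transferase Mgstl had a log2 fold change of -0.43 (adjusted p = 0.262). Of 33 tested cytochrome P450 genes, oxidases that act on many foreign compounds, 2 were called higher and 5 lower (median 0.17). That is 21.2% called and 15.2% called lower. Cyp6a20 and Cyp28d1 had no count in the 3 GAF RNAi libraries, against 1.11 ± 0.157 and 0.837 ± 0.548 CPM in controls, and Cyp6a17 had 0.127 ± 0.151 CPM in GAF RNAi and 7.24 ± 2.18 CPM in controls. Of 11 tested UDP-glycosyltransferase genes, which add sugars to such compounds, 1 was called higher and 3 lower (median 0.20). That is 36.4% called and 27.3% called lower. Ugt302C1 had no count in GAF RNAi, against 13.9 ± 6.45 CPM in controls, and Ugt302K1 and Ugt36A1 stood at 0.365 ± 0.0563 and 0.486 ± 0.186 CPM in GAF RNAi, against 4.06 ± 0.683 and 2.93 ± 0.228 CPM in controls. All 3 lower UDP-glycosyltransferase calls and 5 of the 7 P450 calls held with each library left out.

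Markers of other cell types also differed in the GAF experiment. All 5 neuronal markers (elav, nSyb, Syt1, brp and Rbp9) were called higher, with summed levels of 83.4 to 111 CPM in GAF RNAi and 23.2 to 43.8 CPM in controls. Of 5 glial markers repo and Eaat1 were called higher and nrv2 lower, and the sum was 134 to 165 CPM in GAF RNAi and 591 to 697 CPM in controls, with nrv2 alone at 47.2, 42.1 and 48.4 CPM in GAF RNAi and 575, 658 and 560.2 CPM in controls. None of these 10 genes was at 0 in all libraries. Of the stem cell markers 2 were called lower, btd (-0.82, adjusted p = 0.00511) and wor (-0.46, 0.0313). Of 7 fat body markers 2 were tested and 1 was called higher (sum 28.3 to 34.8 CPM in GAF RNAi and 13.9 to 24.5 CPM in controls). Of 6 blood cell markers 2 were tested and 1 was called higher (sum 2.195 to 3.39 CPM in GAF RNAi and 1.03 to 1.20 CPM in controls). Of 4 tracheal markers 2 were tested, and of 8 gut and Malpighian tubule markers 3 were tested and 3 had no count. The 2 lists summed to 0.689 to 2.08 and 62.2 to 73.6 CPM in GAF RNAi, against 1.30 to 1.92 and 58.9 to 63.7 CPM in controls. None of their tested genes was called by edgeR, DESeq2 or limma-voom, or at an unadjusted p under 0.05. The gene pcs alone made up most of the gut and tubule sum, at 48.3 ± 4.85 CPM in GAF RNAi and 46.7 ± 7.93 CPM in controls. With single libraries left out the calls of wor, repo, brp and the blood cell marker Col4a1 were lost (adjusted p up to 0.135, 0.11, 0.0863 and 0.0722). The part of these markers in the GST levels was not tested.

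With Osa overexpression a smaller set of GSTs was lower, among them abundant delta, omega and theta genes, and GstS1 was higher. The delta sum was 587 ± 117 CPM with Osa overexpression, 45.5% of 1291 ± 62.7 CPM in controls (n = 2 each), the omega sum 120.1 ± 22.4 CPM, 54.8% of 219 ± 15.6 CPM in controls, and the theta sum 39.5 ± 2.15 CPM, 41.5% of 95.2 ± 24.0 CPM in controls. The zeta sum differed by less than its spread, at 1216 ± 92.9 CPM with Osa overexpression and 1288 ± 48.5 CPM in controls. Of 27 tested members 8 were called, 1 higher and 7 lower, where 21.1% of all genes were called (8.86% higher, 12.2% lower). The median log2 fold change was -0.25 for tested members and 0.05 for all genes. Scaling by library size alone moved the median of all genes to 0.32 in this experiment and to 0.33 in the HDAC1 experiment, and it turned the split of all genes called in the Osa experiment from 811 higher and 1118 lower into 1963 higher and 538 lower. Under it the median of the tested members was 0.02, and 1 member was called higher and 7 lower as before, each in its direction. The 8 members not tested were GstD2, GstD4, GstD6, GstD7, GstD8, GstE4, GstE10 and GstE14, with at most 19 counts in a library.

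GstD9 changed most among the called members, with 31.6 and 50.6 CPM under Osa overexpression and 327 and 264 CPM in controls (-2.85 ± 0.24, adjusted p = 0.000695). GstD1 had 398 and 492 CPM with Osa overexpression and 912 and 902 CPM in controls (-1.03 ± 0.15, adjusted p = 0.00381). Neither gene's groups overlapped. GstD3, the delta gene that was nearly absent in the GAF RNAi libraries, had 72.4 and 124 CPM with Osa overexpression and 92.7 and 76.3 CPM in controls, which overlap (0.22 ± 0.24, adjusted p = 0.567). GstD5 rested on 62 counts with Osa overexpression and 4 in controls and was not called (3.61 ± 1.37, adjusted p = 0.0876), and GstD10 was not called either (adjusted p = 0.0755).

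Of the epsilon genes GstE6 alone was called of 11 tested. It had 30.6 and 47.4 CPM with Osa overexpression and 113 and 69.4 CPM in controls (-1.22 ± 0.27, adjusted p = 0.0176), and the call was lost without control replicate 1 (adjusted p = 0.0998) or Osa overexpression replicate 1 (0.207). Its neighbours GstE7 (-0.64 ± 0.32) and GstE8 (-0.25 ± 0.27) were not called (adjusted p = 0.178 and 0.537). GstE5 had 18 counts with Osa overexpression and 79 in controls and missed the threshold (adjusted p = 0.061).

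Both abundant omega genes, which lie side by side on chromosome 3L, were lower. GstO1 (8523742 to 8524866, minus strand) had 14.1 and 15.9 CPM with Osa overexpression and 40.7 and 34.1 CPM in controls (-1.32 ± 0.21, adjusted p = 0.00487). GstO2 (8521429 to 8523501, minus strand) had 86.8 and 114.7 CPM with Osa overexpression and 183 and 168 CPM in controls (-0.80 ± 0.17, adjusted p = 0.0117), and its call was lost without control replicate 1 (adjusted p = 0.0958). Among the theta genes GstT3 had 17.4 and 13.2 CPM with Osa overexpression and 38.5 and 67.2 CPM in controls (-1.79 ± 0.28, adjusted p = 0.00581), and GstT1 had 11.6 and 13.2 CPM with Osa overexpression and 23.9 and 26.6 CPM in controls (-1.02 ± 0.23, adjusted p = 0.0148). The groups of both were apart. GstT3 lost its call without Osa overexpression replicate 1 (adjusted p = 0.0667), and GstT1 without control replicate 1 (0.0734) or 2 (0.108). GstS1 was the one member called higher, with 75.9 and 99.3 CPM under Osa overexpression and 63.8 and 49.3 CPM in controls (0.63 ± 0.19, adjusted p = 0.0445). Its call did not hold without control replicate 1, control replicate 2 or Osa overexpression replicate 2 (adjusted p 0.0733 to 0.347). Only GstD9 and GstO1 kept their calls under every alternative. Left-out libraries moved the number of called members to 4 (without control replicate 1) at the lowest and 11 (without Osa overexpression replicate 2) at the highest.

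In the companion lists of the Osa experiment, no call was kept with every library left out in turn. Each such fit leaves a single library in a group, and without either control library far fewer of all genes were called too. Whether these lists lost more calls than other genes was not tested. The lists are read beside the 21.1% of all genes called, 8.86% higher and 12.2% lower. Of 15 tested genes listed for glutathione synthesis and recycling 3 were lower (20.0%), although the list median was 0.12: the thioredoxin Trx-2 (-0.63 ± 0.14, adjusted p = 0.0135), Gclm (-0.58 ± 0.17, 0.0342) and Gfat1 (-2.59 ± 0.80, 0.0456). Gfat1 encodes an aminotransferase of the hexosamine pathway, which neither makes nor recycles glutathione, and without it 2 of 14 genes were lower (median 0.18). Of 12 tested genes of the Nrf2 pathway 5 were lower (41.7%, median -0.26), among them the mitochondrial peroxiredoxin Prx3 (-0.70 ± 0.14, adjusted p = 0.0101), the mitochondrial superoxide dismutase Sod2 (-0.65 ± 0.14, 0.0134) and Prx6005 (-0.69 ± 0.17, 0.0199). For cnc the log2 fold change was -0.18 and for Keap1 0.15, neither of them called. Of 10 tested genes with the transferase fold, gfzf, a nuclear protein that carries such a domain, was higher (0.71 ± 0.17, adjusted p = 0.0202), and CG9393 (-0.51, 0.0437) and Clic (-0.47, 0.0488) were lower (3 called in all, list median 0.07). Of 29 P450 genes Cyp6d4 (1.41 ± 0.34, adjusted p = 0.0193) and Cyp304a1 (2.12 ± 0.65, 0.0441) were higher (6.9% called, median 0.32). None of 9 UDP-glycosyltransferase genes was called by edgeR or limma-voom, with 1 called by DESeq2 and 2 at an unadjusted p under 0.05. Ugt302C1 (-1.29 ± 0.42, adjusted p = 0.0531) and Ugt36D1 (0.79 ± 0.31, 0.0916) came nearest (list median 0.05). The adjusted p of the called genes of these lists reached 0.382 with a library left out. Scaling by library size alone left no lower call for glutathione synthesis and recycling (1 higher, median 0.40), 1 lower for the Nrf2 pathway (median 0.01) and none lower for the transferase fold (2 higher, median 0.34). None of the 8 tested genes around the delta and epsilon clusters was called by edgeR or limma-voom, and DESeq2 called 4, with 4 at an unadjusted p under 0.05.

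Among marker genes of the Osa experiment, 1 stem cell marker was called higher (btd) and 2 lower (pnt and klu), 2 of 5 neuronal markers were called higher (sum 495 to 583 CPM with Osa overexpression and 317 to 383 CPM in controls), and 1 of 5 glial markers was called higher (574 to 654 CPM with Osa overexpression and 418 to 545 CPM in controls). Of 7 fat body markers 2 were tested and 1 was called lower. This was Lsp1gamma, at 3.73 ± 0.836 CPM with Osa overexpression and 10.7 ± 1.85 CPM in controls. The fat body list summed to 11.5 to 11.9 CPM with Osa overexpression and 13.97 to 17.9 CPM in controls. Of 6 blood cell, 4 tracheal and 8 gut and Malpighian tubule markers 3, 1 and 3 were tested. None of the tested genes was called by edgeR, DESeq2 or limma-voom, with 1 blood cell gene at an unadjusted p under 0.05. In the same order the lists summed to 1.13 to 3.14, 1.98 to 2.91 and 97.4 to 98.4 CPM with Osa overexpression. In controls the sums were 0.695 to 1.74, 1.77 to 2.16 and 88.7 to 90.2 CPM, and 4 of the 8 gut and tubule genes had no count. Most of the gut and tubule sum was again pcs, at 87.0 ± 1.64 CPM with Osa overexpression and 81.2 ± 0.147 CPM in controls. With single libraries left out only the call of pnt held, and those of btd, klu, nSyb, elav, the glial marker Gs2 and Lsp1gamma were lost (adjusted p up to 0.272). The part of these markers in the GST levels was not tested.

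With HDAC1 RNAi no member was called. The test by edgeR gave 0 of 29 tested members, limma-voom gave 0 and DESeq2 gave 1, and over all genes edgeR called 0.0971%. At an unadjusted p under 0.05 there were 5 members and 11.9% of all genes. The 2 RNAi libraries were the least alike of any replicate pair, with a median chi-square per gene of 132, against 7.52 to 28.8 in the other pairs. A fit without 1 of these libraries leaves a single library in its group, so for single members only log2 fold changes are given from it. With HDAC1 RNAi replicates 1 and 2 left out in turn, they were -0.64 and -2.19 for GstD9 and -0.86 and -1.56 for GstO1. In the same order they were 1.80 and 0.81 for GstD2, 1.42 and 0.60 for GstE12 and 1.81 and 5.55 for GstE14. The median log2 fold change was 0.19 for tested members and 0.06 for all genes. The delta sum was 1145 ± 428 CPM in HDAC1 RNAi and 1604 ± 17.1 CPM in controls, the epsilon sum 356 ± 108 CPM in HDAC1 RNAi and 231 ± 48.5 CPM in controls, the omega sum 75.2 ± 13.4 CPM in HDAC1 RNAi and 129.6 ± 0.111 CPM in controls, and the zeta sum 589 ± 60.4 CPM in HDAC1 RNAi and 447 ± 46.7 CPM in controls (n = 2 each). GstD4, GstD6, GstD7, GstD8, GstE4 and GstE10 were not tested, with at most 26 counts in a library.

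The member with the largest difference in the HDAC1 experiment was GstE14 (2R, 13239729 to 13241013, plus strand), also named Noppera-bo, an epsilon enzyme needed for the synthesis of the moulting hormone ecdysone in the prothoracic gland. It is described in detail because of its values. GstE14 had 32.5 and 2.41 CPM in HDAC1 RNAi replicates 1 and 2 (1516 and 76 counts) and 0.485 and 0.904 CPM in the controls (15 and 29 counts). Both RNAi libraries were above both controls, and replicate 1 carried most of the excess. The ratio of summed counts was 29.2 (95% counting interval 21.6 to 40.3) and the log2 fold change 4.65 ± 1.08, with an adjusted p of 0.15 in edgeR. Over the alternatives the adjusted p ran from 9.65e-09 without a filter on low counts to 0.321 with library-size scaling, and it was 9.5e-06 in DESeq2. The log2 fold change was 1.81 without RNAi replicate 1 and 5.55 without RNAi replicate 2. In the other experiments the gene was near 0, with at most 7 counts in any library.

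**Figure D5:**
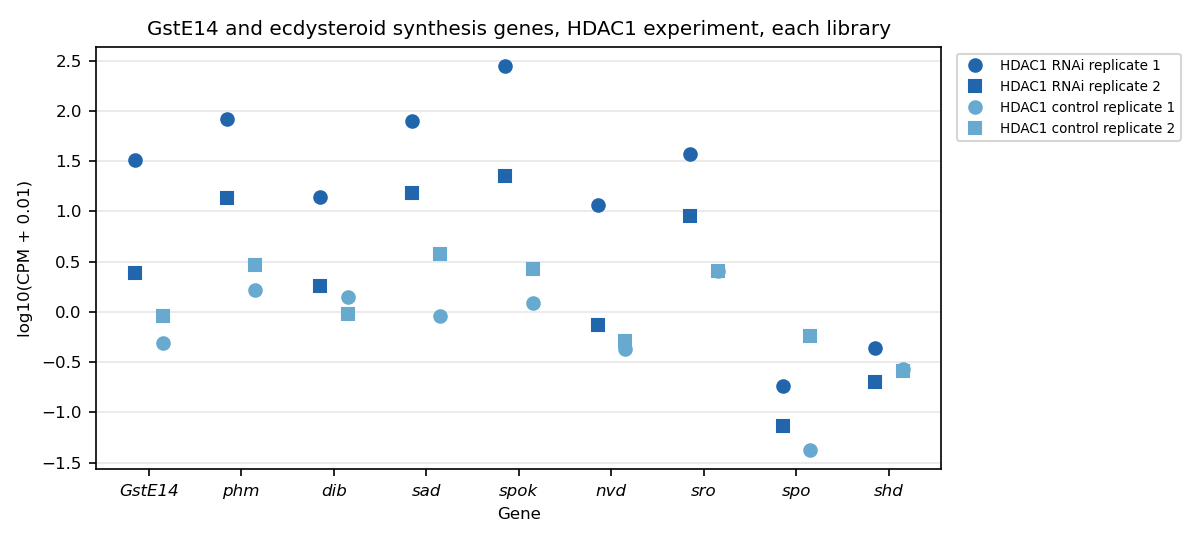
Level of GstE14 and of 8 genes of ecdysteroid synthesis in the 4 libraries of the HDAC1 experiment, as log10 of CPM plus 0.01. Points are libraries, with HDAC1 RNAi left of controls. GstE14, phm, dib, sad, spok, nvd and sro are highest in HDAC1 RNAi replicate 1, while spo and shd stay below 1 CPM in every library.

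Other genes of the prothoracic gland were then read in the same libraries, a list also chosen after the values were seen. The genes phm, dib, sad, spok, nvd and sro act in the gland at successive steps of ecdysone synthesis, spo is the embryonic counterpart of spok, and shd acts in peripheral tissues. The cytochrome P450 gene spok had 279.6 and 22.6 CPM in HDAC1 RNAi replicates 1 and 2 and 1.23 and 2.65 CPM in controls. The hydroxylase gene phm had 83.0 and 13.5 CPM in HDAC1 RNAi and 1.65 and 2.90 CPM in controls, and sad had 80.0 and 15.3 CPM in HDAC1 RNAi and 0.904 and 3.80 CPM in controls. In each of the 3 genes replicate 1 was the highest library and replicate 2 the next. All 6 tested genes of this list had an unadjusted p under 0.05 and positive fold changes (median 4.04), and none passed adjustment in edgeR (adjusted p 0.0584 to 0.217) or limma-voom, while DESeq2 called 6. The list summed to 63.2 to 506 CPM in HDAC1 RNAi and 8.40 to 14.1 CPM in controls. Whether prothoracic gland cells were present in the HDAC1 RNAi libraries was not tested. In the GAF experiment 1 gene of this list was called, dib, at 0.0302 ± 0.0522 CPM in GAF RNAi and 1.49 ± 0.316 CPM in controls, and with Osa overexpression none was, by edgeR, DESeq2 or limma-voom or at an unadjusted p under 0.05.

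The other 4 members with an unadjusted p under 0.05 in the HDAC1 experiment were GstD2, GstE12, GstD9 and GstO1. GstD2 had 25.4 and 49.999 CPM in HDAC1 RNAi and 20.3 and 8.92 CPM in controls (1.37 ± 0.50, adjusted p = 0.313), and GstE12 had 75.3 and 132 CPM in HDAC1 RNAi and 58.8 and 41.0 CPM in controls (1.05 ± 0.42, adjusted p = 0.348). GstD9 had 51.2 and 149 CPM in HDAC1 RNAi and 234 and 238 CPM in controls (-1.24 ± 0.52, adjusted p = 0.376). GstO1 had 12.7 and 20.4 CPM in HDAC1 RNAi and 38.1 and 37.3 CPM in controls (-1.19 ± 0.40, adjusted p = 0.276). The differences of all 4 genes missed the threshold. The abundant GstD1 had 721 and 1203 CPM in HDAC1 RNAi and 1321 and 1320.2 CPM in controls (-0.46 ± 0.48, adjusted p = 0.801). GstE6, almost absent in the GAF RNAi libraries, had 33.1 and 62.6 CPM in HDAC1 RNAi and 40.7 and 46.0 CPM in controls (0.14 ± 0.41). GstS1 had 134 and 129.5 CPM in HDAC1 RNAi and 85.8 and 79.0 CPM in controls (0.68 ± 0.38), and GstO2 46.8 and 55.8 CPM in HDAC1 RNAi and 78.0 and 80.4 CPM in controls (-0.63 ± 0.36), both without overlap.

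No gene of the 5 companion lists or of the cluster surroundings was called by edgeR or limma-voom in the HDAC1 experiment. DESeq2 called 1 of 16 genes listed for glutathione synthesis and recycling, which was the hexosamine pathway gene Gfat1, 2 of 40 P450 genes and none of the other lists. At an unadjusted p under 0.05 there were Gfat1 alone of the glutathione list, 1 of 14 of the Nrf2 pathway, none of 10 with the transferase fold, 7 P450 genes, 1 of 13 UDP-glycosyltransferase genes and 1 of 11 neighbours. The list medians were 0.16, -0.03, -0.38, 0.26 and 0.39 in the order of the lists. The genes with the smallest p were Gfat1 (-3.24 ± 0.55, adjusted p = 0.0527) and Trx-2 (-0.77, 0.566), Prx2540-1 (1.74, 0.32) and Prx2540-2 (0.80, 0.699), Su(P) (0.67, 0.542) and CG9393 (-0.56, 0.626), Cyp6g2 (3.39, 0.0527) and Cyp310a1 (-3.78, 0.149), and Ugt36D1 (1.91, 0.328) and Ugt50B3 (-1.63, 0.553). Around the clusters the genes with the smallest p were CG4115 (-2.05, 0.232) and Ttd14 (-0.50, 0.68).

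No cell type marker was called by edgeR or limma-voom in the HDAC1 experiment, while DESeq2 called 2 stem cell, 3 neuronal, 1 glial, 1 fat body and 2 tracheal markers. Neuronal markers summed to 405 to 522 CPM in HDAC1 RNAi and 153 to 188 CPM in controls, with 4 of 5 at an unadjusted p under 0.05. Glial, fat body and blood cell markers summed to 192 to 522, 56.8 to 65.0 and 15.3 to 16.2 CPM in HDAC1 RNAi, against 183 to 283, 54.6 to 73.0 and 12.01 to 25.4 CPM in controls. The glial marker nrv2 held much of the glial sum, at 182 ± 179 CPM in HDAC1 RNAi and 161 ± 46.9 CPM in controls. Of 7 fat body and 6 blood cell markers 4 each were tested. Tracheal markers summed to 11.7 to 15.03 CPM in HDAC1 RNAi and 62.7 to 91.8 CPM in controls, with 2 of 4 at an unadjusted p under 0.05. Gut and Malpighian tubule markers summed to 92.0 to 172 CPM in HDAC1 RNAi and 165 to 187 CPM in controls, with 3 of 8 genes tested and 1 without a count. Nearly all of that sum was pcs, at 128 ± 56.8 CPM in HDAC1 RNAi and 170 ± 15.7 CPM in controls. The stem cell sum given above was lower in HDAC1 RNAi, with 3 of 7 genes at an unadjusted p under 0.05. The part of these markers in the GST levels was not tested.

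The responses of the experiments were then compared directly, as differences of log2 fold changes in 1 fit of the 6 groups. Between GAF RNAi and Osa overexpression 7 of 32 tested members differed, where 2.87% of all genes did (1.68% higher and 1.19% lower). Of these, 6 were lower in GAF RNAi relative to its controls, namely GstE6, GstE7, GstE8, GstE11, GstD3 and GstS1. GstO2 went the other way, with a difference of 1.07 ± 0.25 (adjusted p = 0.0376). For GstE8 the difference was -7.03 ± 0.54 (adjusted p = 8.3e-06) and for GstD3 -5.44 ± 0.51 (5.04e-05). GstS1 was called lower in GAF RNAi and higher with Osa overexpression, and the difference was -2.73 ± 0.34 (adjusted p = 0.000437). Between GAF RNAi and HDAC1 RNAi 10 of 32 members differed, all lower in GAF RNAi, where 3.2% of all genes did (1.09% higher and 2.11% lower). They were GstD1, GstD3, GstD9, GstE1, GstE5, GstE6, GstE7, GstE8, GstE11 and GstS1. Some of these calls rested on single libraries. Against Osa overexpression, the call of GstO2 was lost under 12 of 22 alternatives, with an adjusted p of up to 0.24 without Osa overexpression replicate 1, and that of GstE11 under 7 of 21, with up to 0.14 without Osa control replicate 2. Against HDAC1 RNAi, leaving out HDAC1 control replicate 2 ended the calls of GstD1 (0.0715), GstD9 (0.127), GstE1 (0.0784), GstE5 (0.133) and GstE11 (0.141), and leaving out HDAC1 control replicate 1 those of GstD1 (0.0573), GstD9 (0.107), GstE5 (0.17) and GstE11 (0.103). GstD9, GstE5 and GstE11 also lost theirs without single GAF libraries, at adjusted p-values of 0.0505 to 0.0591. Between HDAC1 RNAi and Osa overexpression edgeR called none of 32 members, nor did DESeq2 or limma-voom, and edgeR called 0.00894% of all genes. At an unadjusted p under 0.05 there were 10 members and 8.11% of all genes.

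Some members were called in both the GAF and the Osa experiment, which have separate controls. GstD1, GstD9, GstE6 and GstT3 were lower in both, which is 22.2% of the 18 members lower in GAF RNAi and 57.1% of the 7 lower with Osa overexpression. Of the 26 members tested in both experiments 65.4% were lower in GAF RNAi whatever their call with Osa overexpression, so the overlap is not above the family's own share. Over all 8482 genes tested in both, 16.8% were lower in GAF RNAi, as were 30.2% of the genes lower with Osa overexpression. GstO1, GstO2 and GstT1 were lower with Osa overexpression and not called lower in GAF RNAi, where their log2 fold changes were -0.22, 0.28 and -0.21. Of these 3 genes, GstO2 passed the direct test of the difference given above, a call that did not hold with every library left out. GstZ2, the second most abundant member per kilobase in the GAF and Osa controls, was not called in any experiment (-0.06 ± 0.12 in GAF RNAi, 0.42 ± 0.44 in HDAC1 RNAi and -0.08 ± 0.14 with Osa overexpression). Its level was 582 ± 62.8 CPM in HDAC1 RNAi and 436 ± 43.0 CPM in its controls, and 1216 ± 93.0 CPM with Osa overexpression and 1287 ± 48.4 CPM in its controls.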

How the data were processed

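Per the labels' protocols, polyadenylated RNA was amplified (Discover-sc WTA Kit V2), from which 14 libraries were prepared with TruePrep DNA Library Prep Kit V2. The values deposited by the authors are raw counts per gene. The submitters' processing notes name dm6 and the tools featureCounts 2.0.3, HISAT2 2.2.1, Trim Galore 0.6.10 and SAMtools 1.6. Not given in the sources used here are the gene models, the handling of reads with several hits and the unit counted (read or pair). Of counts from 1 to 49, 61.5% to 70.4% were even, so counting intervals are too narrow. Positions and overlaps of exons follow the annotation of BDGP6 (dm6 is the same assembly), in which 17161 of the 17868 genes were found by symbol.

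Samples were grouped by title and each experiment was compared with its own controls. No label ties a replicate to an animal or cross of its own, and the p-values therefore describe variation among these libraries, which may be technical. Genes were filtered by filterByExpr (minimum count 10, minimum total 15), scaled by TMM and tested over the whole table in edgeR 4.0.16 (R 4.3.3) by the robust quasi-likelihood test, with Benjamini-Hochberg adjustment and a threshold of 0.05. A standard error is the size of a log2 fold change over the square root of its F statistic. Differences between experiments were contrasts in 1 fit of 6 groups. CPM are TMM-normalised within an experiment, and class sums have no test. Intervals of count ratios are exact at 95%.

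Members and lists were chosen with earlier results of these data known. Values in every library were given for members called in an experiment whose higher group averaged 10 CPM or more there and for the highest member per kilobase in controls, other members by range or count, and from companion lists up to 3 called genes in order of p, or 2 genes of a list without calls. The exceptions, chosen after their values were seen, were GstE14, the ecdysteroid list, all 4 called genes of glutathione recycling in the GAF experiment, the regulators cnc, Keap1, maf-S, Gclc and Gclm, and members named for contrast between experiments.

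Alternatives were DESeq2 1.42.0 and limma-voom (limma 3.58.1) in place of edgeR, scaling by RLE or by library size alone, a filter at 5 CPM on average or none, halved counts, a block for the replicate number, a joint fit of 14 libraries, and leaving out each library in turn. The tests were checked on simulated counts. Figures were drawn with matplotlib 3.10.9.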

Additional observations from a re-analysis of the deposited data

Results flagged for a closer look

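Of the members, 7 differed between GAF RNAi and Osa overexpression and 10 between GAF RNAi and HDAC1 RNAi by a direct test of the difference in log2 fold change (edgeR, adjusted over all genes). In the run of neighbouring epsilon genes the differences between GAF RNAi and Osa overexpression were -12.41 ± 0.71 for GstE6 (adjusted p = 4.15e-07), -7.23 ± 0.88 for GstE7 (0.000419) and -7.03 ± 0.54 for GstE8 (8.3e-06). Against HDAC1 RNAi they were -13.85 ± 0.72, -8.64 ± 0.90 and -8.15 ± 0.55 for the same genes in the same order (adjusted p = 1.03e-07, 6.56e-05 and 1.91e-06). GstD3 differed by -5.44 ± 0.51 from Osa overexpression (5.04e-05) and by -5.82 ± 0.52 from HDAC1 RNAi (1.78e-05), and GstS1 by -2.73 ± 0.34 (0.000437) and -2.89 ± 0.34 (0.000197). These 5 genes passed in both contrasts under every alternative analysis. Since GstE6 had 2 counts in all GAF RNAi libraries together, the size of its fitted difference depends on the prior count.

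The others were less stable. GstE11 differed by -4.31 ± 0.97 from Osa overexpression (adjusted p = 0.0263) and by -4.34 ± 0.95 from HDAC1 RNAi (0.0223), and these calls were lost under 7 and 4 alternatives, with adjusted p up to 0.14 and 0.141, most of them fits without a GAF RNAi, Osa or HDAC1 control library. GstO2 differed by 1.07 ± 0.25 between GAF RNAi and Osa overexpression (0.0376), and the call was lost under 12 of 22 alternatives (adjusted p up to 0.24, without Osa overexpression replicate 1). Between GAF RNAi and HDAC1 RNAi, GstD1 differed by -2.01 ± 0.40 (0.0125), GstD9 by -2.19 ± 0.50 (0.0259), GstE1 by -2.84 ± 0.54 (0.00955) and GstE5 by -5.77 ± 1.34 (0.0292). Their calls were lost without HDAC1 control replicate 2 (adjusted p of 0.0715, 0.127, 0.0784 and 0.133), and those of GstD1, GstD9 and GstE5 also without HDAC1 control replicate 1 (0.0573, 0.107 and 0.17). The labels name no batch, so batch and experiment cannot be told apart. What a batch would add to both arms alike is removed by the controls, while the rest cannot be told apart from the response.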

How the results depend on the processing

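Of 408 alternative values of the 29 fold changes called among members, 345 kept the call, 63 lost it and 0 changed sign. A fit that did not test a member gave no value and is not among the 408. With genes of at least 5 CPM on average 10 members were called in the GAF experiment instead of 21 (10 left the test, GstE13 and GstT3 lost their calls in it at adjusted p-values of 0.0629 and 0.0619, and GstO2 gained one), and with all 14 libraries in 1 fit 13 were, and leaving out a library gave 15 to 18. Over all genes of that experiment, 2573 by the analysis reported, the fit of all libraries called 1451 and leaving out a library 1593 (GAF RNAi replicate 1) to 3389, with 1713 without control replicate 2. In the HDAC1 experiment 1 member instead of 0 was called without a filter, by DESeq2, with the replicate block and in the fit of all libraries (GstO1 there, GstE14 in the others), and 0 to 9 with a library left out. Over all genes, 10 by the analysis reported, the counts were 0 with library size only, 309 without a filter, 294 by DESeq2, 2 by limma-voom, 241 with the replicate block, 38 with counts halved, 345 in the fit of all libraries and 36 to 3621 with a library left out (36 and 43 without control replicates 1 and 2, 1627 and 3621 without HDAC1 RNAi replicates 1 and 2). In the Osa experiment the fit of all libraries called 5 members instead of 8 and 354 of all genes instead of 1929, and leaving out a library gave 4 to 11 members and 498 to 3535 genes (498 and 572 without control replicates 1 and 2, 3535 without Osa overexpression replicate 2). Differences between GAF RNAi and Osa overexpression numbered 5 to 11 with a library left out, instead of 7 (11 without either HDAC1 RNAi library), those between GAF RNAi and HDAC1 RNAi 5 to 15, instead of 10 (6 and 5 without HDAC1 control replicates 1 and 2), and those between HDAC1 RNAi and Osa overexpression 0 to 3, instead of 0 (3 and 1 without HDAC1 RNAi replicates 1 and 2). The cause was not tested where none is given. In the HDAC1 and Osa experiments a fit without a library leaves a single library in its group, so its counts of calls are no support for any gene. Deviations of same-numbered libraries correlated at -0.14 to 0.01 in the GAF experiment, 0.14 in the HDAC1 experiment and 0.01 in the Osa experiment. With 2 libraries per group the other pairings only mirror this value, so a pairing in the HDAC1 experiment cannot be judged. No label ties same-numbered libraries together. With the replicate block 18, 1 and 7 members were called in the GAF, HDAC1 and Osa experiments. A count of sequence windows shared between neighbouring members was planned and not run. Depth limited what could be read for members below about 1 CPM, which were 9 to 17 of 35 by group.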
